A study of Mus musculus with 12 samples.

Results

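Amino acid transporters are described here as 10 genes chosen by name, out of 54356 genes in the files: Slc3a2, Slc7a1, Slc7a5, Slc7a6, Slc7a8, Slc7a10, Slc1a3, Slc1a5, Slc38a1 and Slc38a2. They were measured in interscapular brown adipose tissue, the heat-producing fat depot between the shoulder blades, of 6 cold and 6 ctrl mice. All 12 were wild type C57BL/6N males aged 20 weeks, and each library came from 1 animal with its own mouse number. The labels attach single housing at 4 °C for 24 h to both groups, and this is read here as meant for the cold mice. The colony was kept at 22 to 24 °C, and how the ctrl mice were housed in the last day is not stated, so single housing and cold cannot be told apart if the ctrl mice shared cages. The design text speaks of n = 3 mice in the cold, whereas 6 samples carry that label, and the protocol for RNA extraction speaks of eWAT, a white fat depot, although the tissue is labelled as brown fat.

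Amino acids cross the plasma membrane through several protein families. Members of the Slc7 family known as light chains are bound by a disulfide bridge to a heavy chain, Slc3a2, which carries them to the cell surface, where they exchange one amino acid for another. Cationic transporters such as Slc7a1 work without a heavy chain. Sodium-coupled carriers of the Slc1 and Slc38 families load cells with glutamine, alanine, serine or glutamate, and the exchangers can use that load to bring in leucine and other essential amino acids. In brown fat, amino acids are used for protein synthesis, for nitrogen transfer and as mitochondrial fuel.

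Libraries held about 16990000 to 31424000 estimated reads in cold mice and 15985000 to 26824000 in ctrl mice, and levels are given as CPM, the read count scaled to a common library size. The tissue label fitted its markers: Ucp1, the uncoupling protein of brown adipocytes, was at 10071 CPM in cold and 8629 CPM in ctrl mice on average. All 8 brown adipocyte markers were detected, with a summed level of 24382 to 33421 CPM in cold mice and 19700 to 27320 CPM in ctrl mice (exact two-sided permutation p = 0.0195, adjusted p = 0.0422 over 13 library values, n = 6 each). Of these Cidea and Fabp4 were higher, Adipoq was lower (330 CPM in cold and 510 CPM in ctrl mice on average), and Ucp1 and the other 4 did not pass the test. Fabp4 was the largest part of the sum, at 12175 CPM in cold and 9741 CPM in ctrl mice on average. Libraries differed in skeletal muscle RNA, whose 6 markers summed to between 130 and 3756 CPM in cold and between 97.0 and 1246 CPM in ctrl mice, with cold 15 the highest. Very short transcripts (effective length below 50 nt) took up 55.2% of all TPM in ctrl 2 and 2.36% to 8.41% elsewhere, so genes were not compared by TPM; the marker sums were, with and without ctrl 2. The counts of members called higher and lower below were the same without ctrl 2 and cold 15, where Slc38a1 was not tested. In whole tissue, fewer cells of a type and less RNA per cell cannot be told apart.

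After cold, the heavy chain and the light chains Slc7a6 and Slc7a8 were higher, as was the sodium-coupled carrier Slc38a2, while the glutamine carrier Slc1a5 and the glutamate carrier Slc1a3 were lower. Of the 10 members 9 had enough reads to be tested: 4 rose, 2 fell and 3 did not pass (edgeR's quasi-likelihood test, Benjamini-Hochberg adjusted p under 0.05 over 13876 genes). Over all genes tested 31.6% were called, 16.2% as higher and 15.4% as lower, so a call in itself is common in these data. The groups did not overlap for 4 of the 9, which were 3 higher and 1 lower, against 16.3% of all genes. The median log2 fold change of the 9 was 0.41, the value of the uncalled Slc7a10, against -0.01 over all genes tested. Members were chosen with earlier results of these data known, so these contrasts with all genes are not a test of the set. With libraries scaled by their totals, the share of higher among all called genes was 67.3%, against 51.3%, and the members' calls did not change.

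**Figure D1:**
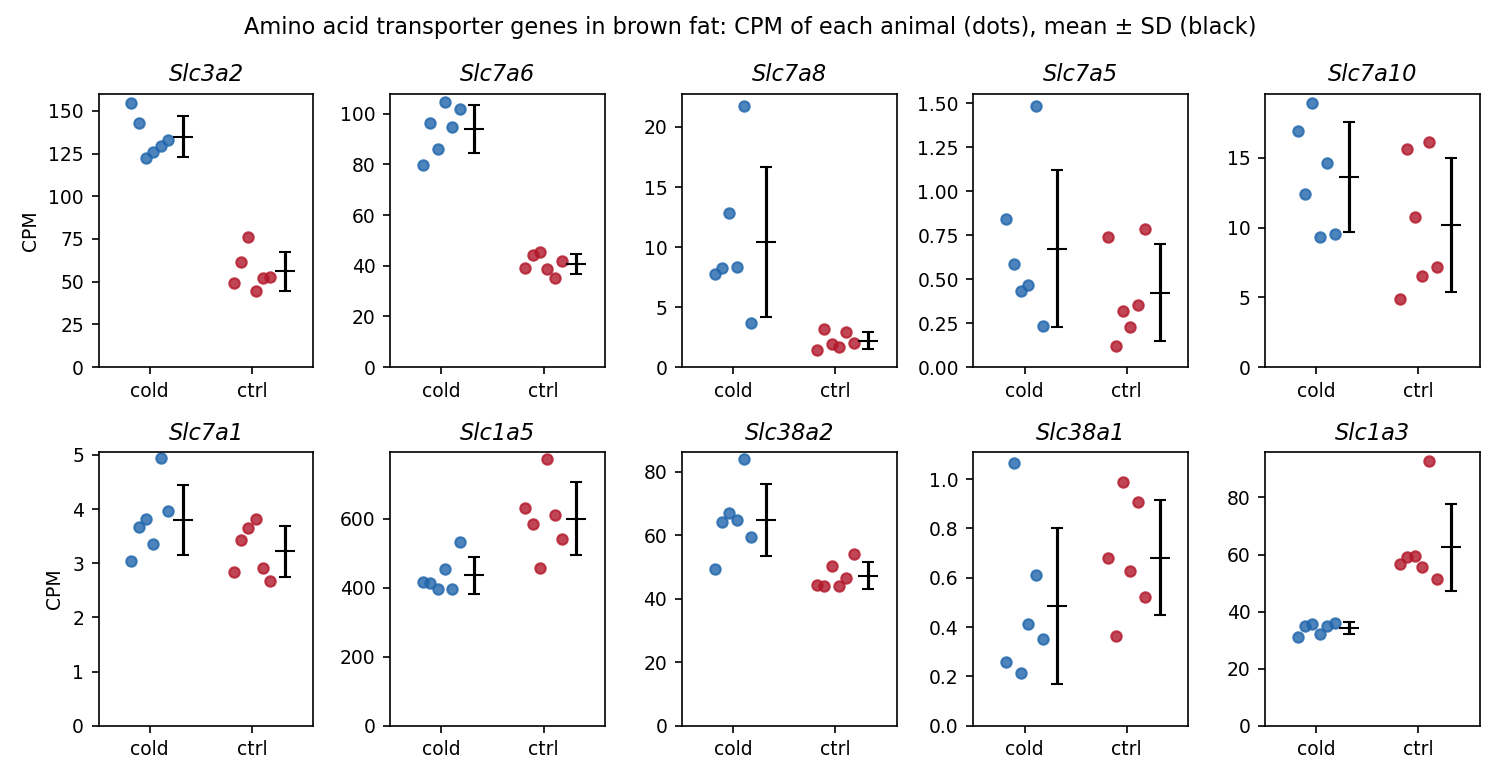
CPM of the 10 transporter genes in each of 6 cold mice (blue, left) and 6 ctrl mice (red, right), with the mean and SD in black and each axis starting at 0. Every cold mouse lies above every ctrl mouse for Slc3a2, Slc7a6 and Slc7a8, and every cold mouse lies below every ctrl mouse for Slc1a3.

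Slc3a2, the heavy chain that escorts light chains to the surface, lay at 122 to 155 CPM in cold mice (median 131) and at 44.4 to 76.0 CPM in ctrl mice (median 52.5). The lowest cold mouse was thus well above the highest ctrl mouse, which was ctrl 6. The means were 135 ± 12.0 CPM in cold and 56.1 ± 11.3 CPM in ctrl mice (SD, n = 6 each), a 2.40-fold rise (log2 fold change 1.26 ± 0.11 SE, adjusted p = 5.39e-07, edgeR). Slc3a2 lies on chromosome 19 at 8706882 to 8723369 on the minus strand (GRCm38, GENCODE M21, as for all gene positions here).

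Slc7a6, the light chain that exchanges cationic amino acids such as arginine for neutral ones plus sodium, moved by nearly the same factor. It lay at 79.9 to 105 CPM in cold mice (median 95.6) and at 34.996 to 45.5 CPM in ctrl mice (median 40.4), with a wide gap between the groups. Its mean was 94.0 ± 9.38 CPM in cold and 40.7 ± 3.88 CPM in ctrl mice (SD, n = 6 each), a 2.31-fold rise (log2 fold change 1.21 ± 0.08 SE, adjusted p = 4.59e-08, edgeR). By p-value it ranked 34 among all genes tested, and Slc3a2 ranked 112. Slc7a6 lies on chromosome 8 at 106168857 to 106198706 on the plus strand.

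Slc7a8, a light chain that exchanges neutral amino acids of small and large size, had the largest fold of the 9 from a low level. It lay at 3.67 to 21.8 CPM in cold mice (median 8.28) and at 1.42 to 3.15 CPM in ctrl mice (median 1.96). The groups did not overlap, but cold mice spread over a wide range, with cold 16 just above the highest ctrl mouse and cold 15 far above the rest. The log2 fold change was 2.23 ± 0.38 SE, or 4.71-fold (adjusted p = 7.63e-04, edgeR). Cold 15 also held the most skeletal muscle RNA; without it the log2 fold change was 1.88 (adjusted p = 0.000165, edgeR), and with the muscle markers as a covariate 1.93 (adjusted p = 8.95e-05, edgeR). Slc7a8 lies on chromosome 14 at 54722209 to 54781946 on the minus strand.

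Slc7a5, the light chain best known for leucine uptake in growing cells and tumours, was close to undetected. It had 3 to 34 reads per library, or 0.233 to 1.49 CPM in cold and 0.121 to 0.784 CPM in ctrl mice, and did not reach the minimum for testing. With no filter its log2 fold change was 0.75 ± 0.45 SE (adjusted p = 0.292, edgeR), so a difference was not detectable at this depth. Slc7a5 lies on chromosome 8 at 121881150 to 121907694 on the minus strand.

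Slc7a10, the light chain for small neutral amino acids such as serine and glycine and a marker of white adipocytes, varied widely within both groups. It lay at 9.29 to 18.9 CPM in cold mice (median 13.5) and at 4.87 to 16.1 CPM in ctrl mice (median 8.96), so the groups overlapped over much of their range. The log2 fold change was 0.41 (95% interval -0.27 to 1.10, adjusted p = 0.343, edgeR). Of 4 white adipocyte markers, Npr3 was higher (464 CPM in cold and 92.0 CPM in ctrl mice on average, adjusted p = 1.24e-06, edgeR), while Lep, Retn and Nnat did not pass the test. The 4 markers summed to 426 to 623 CPM in cold and 97.8 to 257 CPM in ctrl mice (exact two-sided permutation p = 0.00216, the smallest that 6 against 6 can give, adjusted p = 0.0141 over 13 values). Npr3 made up most of this sum. By their means Lep and Nnat were lower in cold than in ctrl mice, and Retn was higher. The part of these markers in the level of Slc7a10 was not tested. Slc7a10, on chromosome 7 at 35186385 to 35201114 on the plus strand, overlaps Lrp3 on the opposite strand over 1088 nt. The libraries are strand-specific, but whether reads were assigned by strand is not known from the labels or file headers.

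Slc3a2 and its light chains can be compared per transcript length, as CPM per kb. In cold mice Slc3a2 stood at 67.7 to 85.5 CPM per kb and the 4 light chains Slc7a5, Slc7a6, Slc7a8 and Slc7a10 together at 33.7 to 40.4. In ctrl mice Slc3a2 stood at 24.5 to 42.1 CPM per kb and the light chains at 14.2 to 21.6. Heavy chain and light chains were thus both higher in every cold mouse than in any ctrl mouse. The level of light chains per heavy chain was 0.495 ± 0.066 in cold and 0.573 ± 0.078 in ctrl mice (SD, n = 6 each), with overlapping ranges of 0.394 to 0.563 and 0.454 to 0.667 and no test made. Slc7a6 made up 64.7% to 82.7% of the light chain level in cold mice and 51.3% to 77.9% in ctrl mice. Other partners of the heavy chain added little: Slc7a7, a further cationic and neutral exchanger, was at 0.904 CPM in cold and 0.845 CPM in ctrl mice, and Slc7a11, the cystine exchanger, at 0.193 and 0.119 CPM in cold and ctrl mice.

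**Figure D2:**
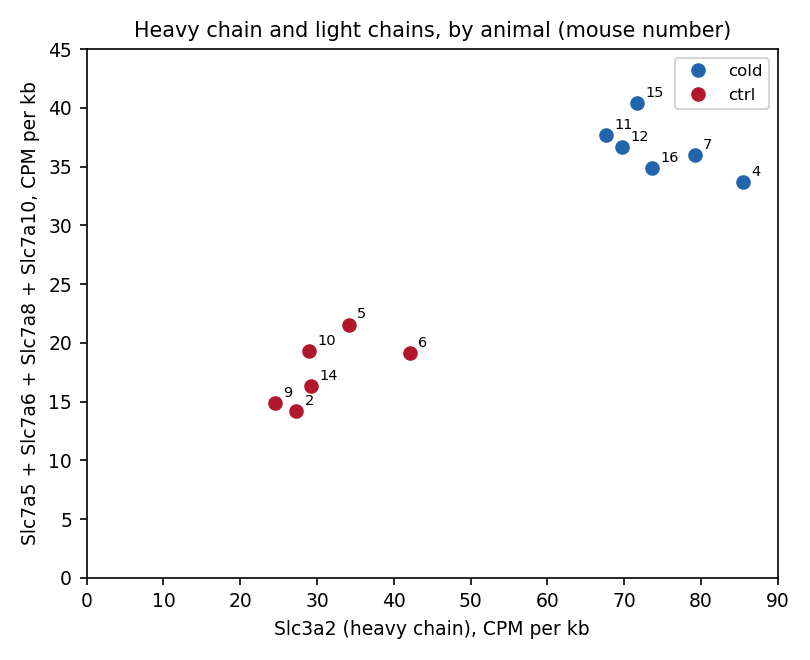
Level of the heavy chain Slc3a2 against the summed level of the light chains Slc7a5, Slc7a6, Slc7a8 and Slc7a10, both in CPM per kb of transcript, in cold mice (blue) and ctrl mice (red), each dot labelled with the mouse number. Cold mice sit at 67.7 to 85.5 on the horizontal axis and ctrl mice at 24.5 to 42.1.

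The upstream sequences of Slc7a6 and Slc38a2, which rose, and of Slc1a3, which fell, are shown as examples. Each is the 250 bases before the RefSeq start (GRCm38.p6), 5′ to 3′ on the gene's strand, with matches to TGACG (reverse strand CGTCA), the half-site of the cAMP response element, and to GGGCGG (reverse strand CCGCCC), the GC box, in capitals. The members shown are the called ones with TGACG in a window. Slc3a2 and Slc7a8, which also rose, are not shown, and their windows held GGGCGG and not TGACG. The window shown for Slc7a6 held neither motif, and a window at its second start, not shown, held both.
Slc7a6 (chr8:106168604-106168853, plus strand): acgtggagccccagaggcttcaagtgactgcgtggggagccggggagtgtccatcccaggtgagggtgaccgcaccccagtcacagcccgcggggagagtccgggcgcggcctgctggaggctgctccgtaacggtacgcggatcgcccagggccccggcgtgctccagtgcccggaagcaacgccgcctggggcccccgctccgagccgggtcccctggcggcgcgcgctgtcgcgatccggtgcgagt
Slc38a2 (chr15:96699729-96699978, minus strand): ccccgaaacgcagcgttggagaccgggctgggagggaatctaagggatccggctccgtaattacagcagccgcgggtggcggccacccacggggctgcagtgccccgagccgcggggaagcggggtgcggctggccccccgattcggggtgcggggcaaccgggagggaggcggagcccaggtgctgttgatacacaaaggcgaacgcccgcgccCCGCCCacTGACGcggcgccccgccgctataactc
Slc1a3 (chr15:8710808-8711057, minus strand): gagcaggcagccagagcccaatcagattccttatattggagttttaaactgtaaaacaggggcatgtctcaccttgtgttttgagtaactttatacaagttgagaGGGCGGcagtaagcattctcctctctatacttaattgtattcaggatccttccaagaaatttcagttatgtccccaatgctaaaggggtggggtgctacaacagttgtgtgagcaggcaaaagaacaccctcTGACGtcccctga

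RefSeq windows were found for 7 members, in 9 windows, and none for Slc7a5, Slc1a5 and Slc38a1. TGACG was in 4 of the 9 windows, those of Slc1a3, Slc38a2, Slc7a1 and a second start of Slc7a6, against 17.8% of 32851 windows of all genes. GGGCGG was in 7 of the 9 windows, at least 1 for each of the 7 members, against 32.7% of all windows. None of the 9 windows held TGACGTCA (the full cAMP response element, which contains TGACG; 1.55% of all windows), TGATGNAA (an element bound by C/EBP and ATF factors; 3.45%), CACGTG (the E-box; 6.02%) or AAGGTCA (a half-site of estrogen-related receptors; 4.08%). At shares of 1.55% to 6.02%, no match in 9 windows says little about the members, and sequence after the start was not searched. A match is a stretch of letters and not a bound site, and the motifs TGACG and GGGCGG were added after the windows had been read.

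Slc7a1, the main carrier of arginine and lysine in many cells, was scarce and did not pass the test. It lay at 3.04 to 4.94 CPM in cold mice (median 3.75) and at 2.68 to 3.82 CPM in ctrl mice (median 3.18), and the ranges overlapped. Its log2 fold change was 0.23 (95% interval -0.10 to 0.57, adjusted p = 0.267, edgeR). Slc7a1 lies on chromosome 5 at 148327410 to 148399904 on the minus strand.

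Slc1a5, the sodium-dependent exchanger of glutamine, alanine and serine, had the highest CPM of the members, all its transcripts counted, and fell. It lay at 395 to 534 CPM in cold mice (median 415) and at 458 to 774 CPM in ctrl mice (median 597). Only cold 16, at 534 CPM, and ctrl 6, at 458 CPM, reached into the other group's range. The mean was 435 ± 52.9 CPM in cold and 600 ± 105 CPM in ctrl mice (SD, n = 6 each), which is 0.726-fold (-0.46 ± 0.11 SE on the log2 scale, adjusted p = 5.07e-03 by edgeR). In cold mice Slc1a5 made up 50.5% to 60.5% of the summed CPM of the 10 members, against 64.8% to 79.8% in ctrl mice. It lies on chromosome 7 at 16781340 to 16798274 on the plus strand.

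Slc38a2, the sodium-coupled carrier of system A that cells raise when amino acids are short, rose modestly. It lay at 49.3 to 84.1 CPM in cold mice (median 64.4) and at 43.8 to 54.2 CPM in ctrl mice (median 45.4). One cold mouse, cold 4, lay within the ctrl range, and the other 5 lay above it. The mean was 64.8 ± 11.4 CPM in cold and 47.2 ± 4.23 CPM in ctrl mice (SD, n = 6 each), which is 1.37-fold (0.46 ± 0.10 SE on the log2 scale, adjusted p = 3.04e-03 by edgeR). Cold 15 was the highest library; without it the log2 fold change was 0.37 (adjusted p = 0.00598, edgeR). Slc38a2 lies on chromosome 15 at 96687392 to 96699730 on the minus strand.

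Slc38a1, the related sodium-coupled carrier of glutamine in neurons and growing cells, was at the edge of detection. It had 4 to 25 reads per library, or 0.215 to 1.06 CPM in cold and 0.364 to 0.990 CPM in ctrl mice. The log2 fold change was -0.51 (95% interval -1.38 to 0.37, adjusted p = 0.361, edgeR), an interval that holds both a fall and a rise. It lies on chromosome 15 at 96571418 to 96642913 on the minus strand.

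Slc1a3, the glutamate and aspartate carrier known from astrocytes, was lower in every cold mouse than in any ctrl mouse. It lay at 31.2 to 36.1 CPM in cold mice (median 35.1) and at 51.3 to 92.9 CPM in ctrl mice (median 57.9). Cold mice lay close together, with a coefficient of variation of 5.90%, and ctrl mice spread with 24.3%, mostly through ctrl 10 at 92.9 CPM. The log2 fold change was -0.87 ± 0.12 SE, or 0.548-fold (adjusted p = 4.15e-05, edgeR), and -0.72 without ctrl 10 (adjusted p = 4.75e-06, edgeR). The 5 fibroblast markers summed to 169 to 249 CPM in cold and 213 to 372 CPM in ctrl mice (exact two-sided permutation p = 0.0195, adjusted p = 0.0422 over 13 values, n = 6 each); Col1a1 and Col3a1 were lower, Dcn, Dpt and Pdgfra did not pass the test. The ratio of cold over ctrl for this sum was -0.48 on the log2 scale in CPM, 0.0464 as TPM shares with ctrl 2, whose TPM went mostly to very short transcripts, and -0.11 as TPM shares without ctrl 2 (exact permutation, adjusted p = 0.870 and 0.619). With these markers as a covariate, an alternative chosen after seeing the data, the log2 fold change of Slc1a3 was -0.78 (adjusted p = 3.01e-04, edgeR). The 5 mural cell markers, of the cells that wrap small vessels, summed to 371 to 503 CPM in cold and 547 to 612 CPM in ctrl mice (exact two-sided permutation p = 0.00216, adjusted p = 0.0141); Rgs5 and Myh11 were lower, and Pdgfrb, Acta2 and Cspg4 did not pass the test. As TPM shares the log2 ratio of this sum was -0.11 with ctrl 2 and -0.27 without it, against -0.38 in CPM (exact permutation, adjusted p = 0.633 and 0.0130 for the TPM shares). The part of mural cells in the fall of Slc1a3 was not tested. Those of Schwann cells, the glia of the tissue's nerves, also 5, summed to 110 to 133 CPM in cold and 94.6 to 167 CPM in ctrl mice. Slc1a3 lies on chromosome 15 at 8634124 to 8710764 on the minus strand.

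**Figure D3:**
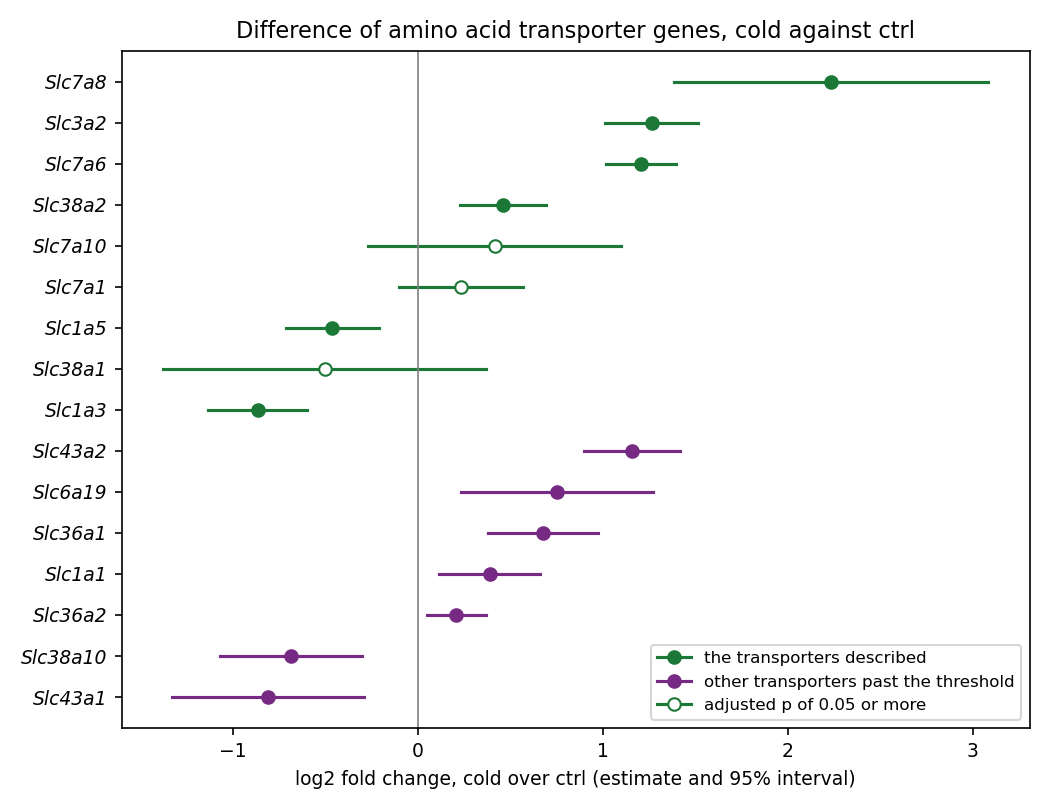
Log2 fold change of cold over ctrl with its 95% interval for the 9 members tested (green) and for the 7 other amino acid transporters past the threshold (purple), with open dots where the adjusted p was 0.05 or more. Slc7a8 has the highest estimate, at 2.23, and the widest interval of the members that rose; Slc1a3 is lowest, at -0.87.

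Per transcript length, the order of the members changed between the groups in its middle part. In cold mice it ran Slc1a5 (161 ± 19.6 CPM per kb), Slc3a2 (74.6 ± 6.64), Slc7a6 (26.6 ± 2.65), Slc38a2 (13.7 ± 2.40), Slc1a3 (8.46 ± 0.50), Slc7a10 (7.22 ± 2.08), Slc7a8 (2.56 ± 1.54), Slc7a1 (0.548 ± 0.094), Slc7a5 (0.192 ± 0.13) and Slc38a1 (0.079 ± 0.052; SD, n = 6 each). Neighbours whose ranges over the cold mice overlapped were Slc1a3 with Slc7a10, Slc7a10 with Slc7a8, and Slc7a5 with Slc38a1. In ctrl mice Slc1a5 (222 ± 38.9) and Slc3a2 (31.02 ± 6.25) also led, but Slc1a3 came next (15.4 ± 3.74), followed by Slc7a6 (11.5 ± 1.10) and Slc38a2 (9.95 ± 0.89). The ranges of Slc1a3, Slc7a6 and Slc38a2 overlapped from each to the next in ctrl mice, whereas in cold mice Slc7a6, Slc38a2 and Slc1a3 stood apart in that order. Slc7a8 and Slc7a1 overlapped in ctrl mice (0.540 ± 0.17 and 0.464 ± 0.068) and not in cold mice. All these levels count every read of a gene. For Slc1a5, 58.2% of reads in cold and 52.7% in ctrl mice were assigned to a transcript annotated as retaining an intron. The coding transcript of Slc1a5 (2764 nt) was at 166 CPM in cold mice, against 122 CPM for the main one of Slc3a2 (1819 nt). Per length and by its mean, the former was thus not above the latter in cold mice.

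**Figure D4:**
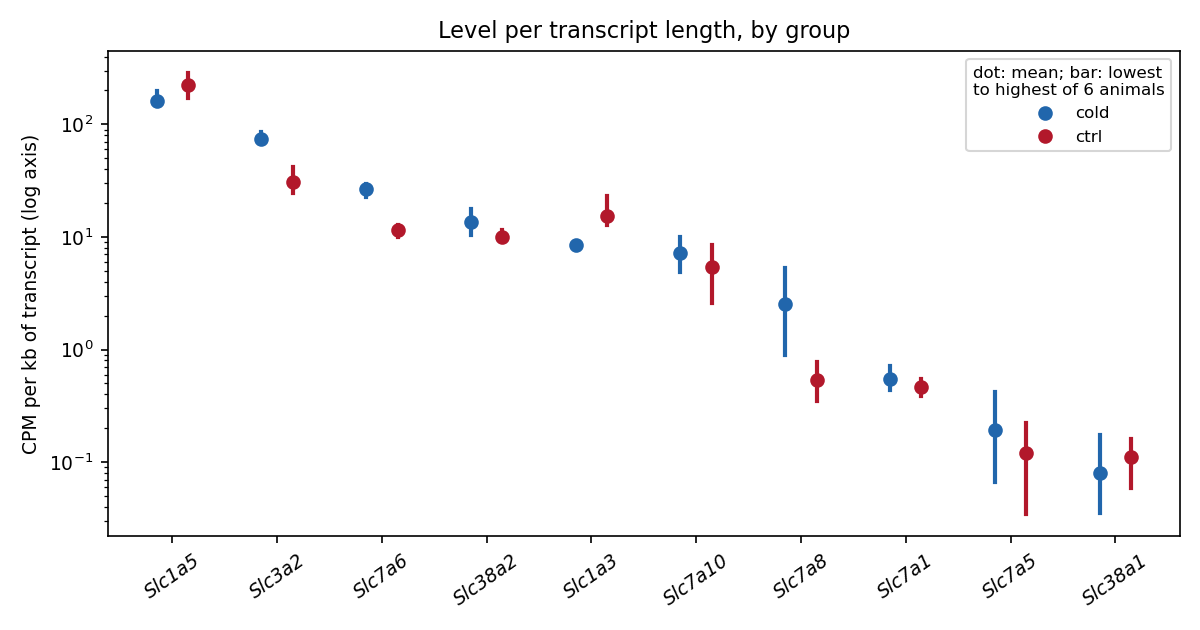
Level of the 10 members per transcript length (CPM per kb, log axis), ordered by the cold mean, for cold mice (blue, left of each pair) and ctrl mice (red, right), with a dot for the mean and a bar from the lowest to the highest of 6 animals. Slc1a5 leads in both groups when all reads of a gene are counted, most of its own being assigned on average to a retained-intron transcript. Slc1a3 is above Slc7a6 and Slc38a2 by its mean in ctrl mice and below both in cold mice.

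For most members the bulk of the reads came from 1 protein-coding transcript. That transcript held 92.8% of reads in cold and 94.7% in ctrl mice for Slc1a3, 95.6% and 93.1% in cold and ctrl mice for Slc38a2, and 88.8% and 84.2% in cold and ctrl mice for Slc3a2. Of 11 transcripts with at least 10% of a member's reads that could be tested, 5 were higher and 2 lower. Over all 30345 transcripts tested 10.3% were called, but those were not chosen by their share of reads, so the sets are unlike. The calls of the 11 also draw on the same reads as the gene calls. For Slc7a6 the main coding transcript rose by 1.33 ± 0.12 SE on the log2 scale (adjusted p = 2.96e-05 by edgeR), and a transcript annotated as retaining an intron by 0.85 ± 0.22 SE (adjusted p = 0.0245 by edgeR).

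Slc1a5 differed from these, since on average the larger part of its reads was assigned to a transcript annotated as retaining an intron. That transcript held 58.2% of reads in cold and 52.7% in ctrl mice, and the protein-coding transcript 37.5% in cold and 42.6% in ctrl mice. In ctrl 5 and ctrl 14 the coding transcript held the larger part, at 51.2% and 52.6% of reads. The coding transcript lay at 137 to 193 CPM in cold mice and at 174 to 299 CPM in ctrl mice, with ctrl 6 as the one ctrl mouse inside the cold range, and fell (log2 fold change -0.63 ± 0.13 SE, adjusted p = 8.44e-03, edgeR). The retained-intron transcript lay at 232 to 328 CPM in cold and 239 to 447 CPM in ctrl mice, largely overlapping, and did not pass the test (-0.30 ± 0.16 SE on the log2 scale, adjusted p = 0.333 by edgeR). A shift between transcripts was tested for the 5 members with more than 1 testable transcript, and none was called at the gene level, against 1.45% of 7233 genes (edgeR's diffSpliceDGE; lowest adjusted p = 0.397, for Slc38a2, which was the 1 member with an unadjusted p under 0.05). Simes adjustment and limma's diffSplice also called 0 of the 5. The difference between the transcripts of Slc1a5 was therefore not shown (adjusted p = 1.00, edgeR).

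**Figure D5:**
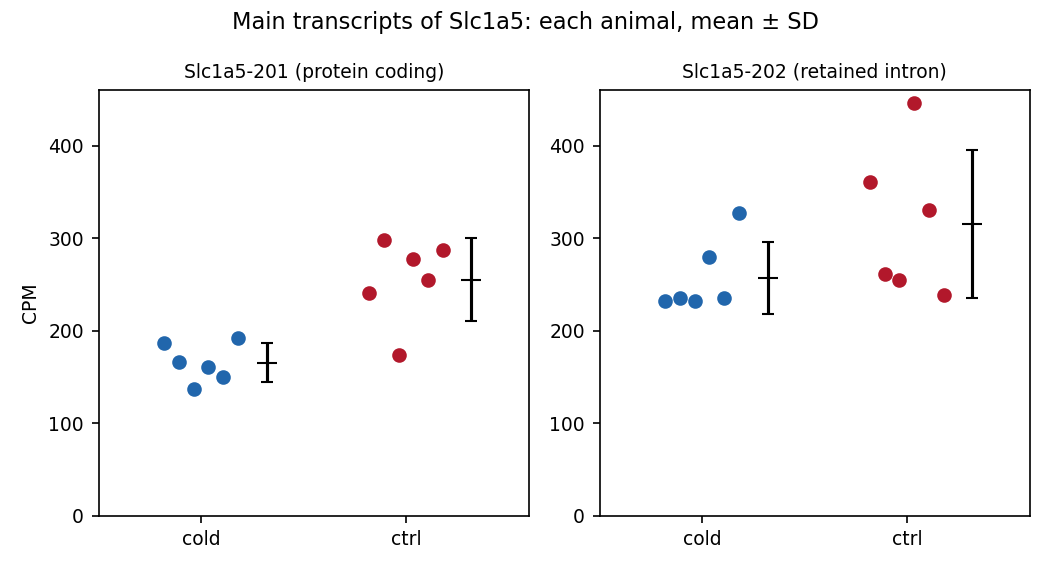
CPM of the coding transcript of Slc1a5 (left panel) and its retained-intron transcript (right panel) in each of 6 cold mice (blue) and 6 ctrl mice (red), with mean and SD in black. Cold mice lie at 137 to 193 CPM for the coding transcript, against 174 to 299 CPM in ctrl mice, and the groups overlap more for the retained-intron transcript.

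Of a list of 40 other amino acid transporters 22 could be tested, of which 5 were higher, 2 lower and 15 not called, against 31.6% called over all genes; their median log2 fold change was 0.03. Slc43a2, which lets leucine and other branched-chain amino acids pass by facilitated diffusion, came closest to the size of Slc3a2 and Slc7a6. It lay at 99.1 to 156 CPM in cold mice and at 49.9 to 64.8 CPM in ctrl mice, with no overlap (log2 fold change 1.16 ± 0.12 SE, adjusted p = 1.79e-06, edgeR). Slc38a10, of the sodium-coupled Slc38 family, lay at 111 to 158 CPM in cold and 161 to 366 CPM in ctrl mice, also without overlap, and fell (-0.69 ± 0.17 SE, adjusted p = 7.33e-03, edgeR).

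The remaining called transporters, named after their values were seen, had overlapping groups. Slc36a1, a proton-coupled carrier of lysosomes, was at 28.0 CPM in cold and 17.5 CPM in ctrl mice on average (log2 fold change 0.68 ± 0.13 SE, adjusted p = 1.02e-03, edgeR). Slc6a19, a carrier of neutral amino acids known from gut and kidney, rose by 0.75 ± 0.23 SE on the log2 scale, and Slc1a1, a glutamate carrier, by 0.39 ± 0.12 SE (adjusted p = 0.0208 and 0.0240 by edgeR). Slc43a1, a relative of Slc43a2, fell by 0.81 on the log2 scale to 1.96 CPM in cold against 3.46 CPM in ctrl mice (adjusted p = 0.0139, edgeR). Slc36a2, a proton-coupled carrier used as a surface marker of brown adipocytes, was at 633 ± 44.3 CPM in cold and 548 ± 25.6 CPM in ctrl mice (SD, n = 6 each; 0.21 ± 0.07, adjusted p = 0.0369, edgeR), a call that was lost under 12 of 24 alternatives. The call of Slc1a1 was lost under 6 of 24, that of Slc6a19 under 2 of 24 and that of Slc43a1 under 2 of 23, and Slc36a1 kept its call.

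Among transporters not called, the 3 of highest level per length were Slc6a6, the taurine carrier, at 334 CPM in cold and 303 CPM in ctrl mice, Slc16a10, a carrier of aromatic amino acids, at 30.9 and 31.1 CPM in cold and ctrl mice, and Ctns, the cystine exporter of lysosomes, at 11.4 and 13.0 CPM in cold and ctrl mice (adjusted p = 0.365, 0.937 and 0.227, edgeR). Per length, the mean of Slc36a2 was above that of every member in both groups. It was 267 CPM per kb in cold mice, against 161 for Slc1a5, and 232 CPM per kb in ctrl mice, against 222 for Slc1a5.

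Of 9 enzymes tested that make and use glutamine and glutamate, 1 was higher (Got1), 2 were lower (Glul and Asns) and 6 were not called, a share near the 31.6% called over all genes. Got1, the cytosolic aspartate aminotransferase, which joins glutamate and aspartate, lay at 165 to 219 CPM in cold mice and at 36.1 to 51.2 CPM in ctrl mice (log2 fold change 2.17 ± 0.11 SE, adjusted p = 2.17e-09, edgeR). Glul, glutamine synthetase, lay at 1807 to 2607 CPM in cold mice and at 3047 to 3866 CPM in ctrl mice, again with no overlap, and fell (-0.55 ± 0.10 SE, adjusted p = 3.24e-04, edgeR). Asns, asparagine synthetase, which takes the nitrogen of glutamine, lay at 35.1 to 47.3 CPM in cold mice and at 38.3 to 56.6 CPM in ctrl mice. Of the ctrl mice, ctrl 9 alone was inside the cold range, and Asns fell (-0.33 ± 0.10 SE, adjusted p = 0.0154 by edgeR).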

How the data were processed

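PolyA RNA was sequenced from strand-specific libraries as 50 nt read pairs, per the labels. Salmon, cutadapt and bcl2fastq were used with GRCm38, per the submitters' processing notes; their annotation release is not given in the sources used. Per the file headers, each deposited file gives 140658 transcripts with estimated counts and TPM; 29.5% to 32.6% of estimated counts were not whole. Transcripts were matched by identifier to GENCODE M21 (140137 matched), summed per gene and rounded. The rest held 0.0866% to 0.152% of reads.

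Genes past filterByExpr (minimum count 10) were scaled by TMM and tested with edgeR 4.0.16 (robust quasi-likelihood, two-sided, Benjamini-Hochberg) in R 4.3.3; standard errors are the log2 fold change divided by the root of F, and 95% intervals use 10 degrees of freedom. Transcripts were tested likewise and usage with diffSpliceDGE. CPM per kb divides by the mean transcript length weighted by reads. Library values used exact permutation over 924 assignments. limma 3.58.1 and DESeq2 1.42.0 served as alternatives, and the gene test was tried on simulated counts. There it found 58.2% of 1.5-fold, 89.6% of 2-fold and 95.5% of 4-fold differences, with 8 false calls in 13678 genes run.

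Members and lists were chosen with earlier results of these data known. All members were named; of other transporters, those called without overlap and the 3 highest uncalled per length; of other lists, the 3 of smallest p. At most 0.741% of the 31-base words of a member's main transcript occur in another gene. No pairing and no batch is labelled, and mouse numbers differ between groups, so animals were treated as unpaired. One gene of the enzyme list is not reported here.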

Additional observations from a re-analysis of the deposited data

Results flagged for a closer look

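Over 28 genes in 56 groups of 6 animals, 5 had an animal set apart from the others of its group by more of the group's range than Dixon's 95% critical value, a gap that chance gives in about 1 of 20 groups. Slc1a3 was at 92.9 CPM in ctrl 10, against 59.4 CPM in the next ctrl mouse. Slc38a10 was at 366 CPM in ctrl 9, against 232 CPM in the next. The other 3 concern cold 4, the deepest library, which was lowest of the cold mice: Slc6a6 was at 248 CPM there and at 335 CPM in the next cold mouse, Slc36a1 at 17.2 and 27.1 CPM, and Rptor, the raptor subunit of the mTORC1 kinase complex, at 58.6 and 79.9 CPM. Cold 4 was also the lowest cold mouse for Slc38a2, Slc7a1, Slc7a6 and Slc1a3, and the highest for Slc3a2.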

How the results depend on the processing

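The 6 called members kept their direction and their call under all 24 alternatives, which were RLE factors, library totals, DESeq2, limma-voom, no filter, a stricter filter, removal of mitochondrial genes, an offset for effective length, skeletal muscle, mouse number or fibroblast covariates, both ctrl 2 and cold 15 left out, and each animal left out. The log2 fold change ran from 1.16 to 1.37 for Slc3a2, 1.15 to 1.30 for Slc7a6, 1.79 to 2.58 for Slc7a8, 0.35 to 0.56 for Slc38a2, -0.92 to -0.72 for Slc1a3 and -0.53 to -0.38 for Slc1a5, and the uncalled Slc7a1, Slc7a10 and Slc38a1 passed under none that tested them. Leaving out 1 animal gave 4 members higher and 2 lower each time, 2023 to 2605 genes higher and 1836 to 2481 lower, and 2 to 5 other transporters higher and 2 to 3 lower. The other transporters called higher numbered 2 without cold 7, 3 without cold 15 and 3 without ctrl 14. They numbered 3 with no filter, and 3 higher and 4 lower without both ctrl 2 and cold 15. An effective length offset gave 1 other transporter lower, as did the fibroblast covariate (1 lower). With library totals 1409 genes were lower, against 2134. As TPM shares, the fibroblast markers' ratio of cold over ctrl was 0.0464 on the log2 scale, reversed from -0.48 in CPM, and -0.11 without ctrl 2, an alternative chosen after seeing the data. No paired analysis was made, because the labels give no pairing and the mouse numbers differ between the groups. The mouse number covariate split the animals into numbers up to 7 and numbers from 9. Depth limits Slc7a5 and Slc38a1, with at most 34 and 25 reads per library.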

Other observations

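Of 12 genes tested of the amino acid response, which cells turn on when amino acids run short, 3 were higher, 2 lower and 7 not called, against 31.6% of all genes called. Eif4ebp1, a repressor of translation that mTORC1 holds in check, lay at 66.4 to 91.4 CPM in cold mice and at 123 to 167 CPM in ctrl mice, with no overlap, and fell (log2 fold change -0.94 ± 0.11 SE, adjusted p = 6.55e-06, edgeR). Asns, whose values stand above with the glutamine enzymes, also fell. Atf5, a transcription factor of this response, was at 276 to 367 CPM in cold and 194 to 314 CPM in ctrl mice and rose (0.33 ± 0.11 SE, adjusted p = 0.0249, edgeR). Trib3 (7.33 CPM in cold and 5.33 CPM in ctrl mice) and Atf4 (135 CPM in cold and 112 CPM in ctrl mice), named after their values were seen, were the other genes called higher (adjusted p = 0.0267 and 0.0466, edgeR). Of 24 alternatives, 15 lost the call of Atf4, 6 that of Trib3, 4 that of Atf5 and 2 that of Asns.

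Of 27 symbols listed for sensing of amino acids by the mTORC1 complex, 24 matched a gene, and all 24 were tested. Gatsl2, Gatsl3 and Samtor matched none. Of the 24, 6 were higher (Rptor, Mtor, Rragc, Rragd, Flcn and Lamtor3), 4 lower (Rragb, Nprl2, Sesn3 and Lamtor2) and 14 not called. Over all genes 31.6% were called. Rragd, Flcn and Lamtor3, named after their values were seen, had groups without overlap (log2 fold change 1.35, 0.28 and 0.27 by edgeR). The calls of Lamtor2 and Sesn3 were lost under 13 and 9 of 24 alternatives, and those of Rragd and Flcn under 1 each. Rptor, which binds the substrates of mTORC1, was at 58.6 to 89.2 CPM in cold and 56.0 to 65.7 CPM in ctrl mice (log2 fold change 0.42 ± 0.09 SE, adjusted p = 3.01e-03, edgeR), with cold 4 alone inside the ctrl range. Nprl2, of the GATOR1 complex that restrains mTORC1, was at 12.2 to 15.0 CPM in cold and 14.5 to 18.7 CPM in ctrl mice (-0.34 ± 0.09 SE, adjusted p = 5.96e-03, edgeR). Rragb, a Rag GTPase, was scarce, at 1.25 CPM in cold and 2.20 CPM in ctrl mice on average (-0.81 ± 0.19 SE, adjusted p = 4.06e-03, edgeR).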
